A study of Rattus norvegicus with 32 samples.

Results

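Fgfr3 and Hes5 are 2 of the 5022 genes named on a 2-colour rat array, chosen by symbol from the probe annotation because both stood low in lung 72 h after a hemorrhage. Each was measured by 1 probe, printed as 2 spots. Male Sprague-Dawley rats of 280 to 300 g carried 2 arterial catheters, recovered for 7 to 10 days and then had 40% of their estimated blood volume withdrawn. The titles give 3 lung samples of bled rats at each of 1, 3, 16, 24, 48 and 72 h, and 5 at 6 h. The 6 sham samples came from rats that carried the same catheters and were not bled. The 3 control samples came from rats that carried none and were not manipulated. The hour at which sham lungs were taken is not clearly given. All rats had the same strain, sex and weight range, and bled and sham rats shared the anesthesia and the surgery for the catheters. The study asked how transcript levels in the lung change with time after hemorrhage.

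Each value is a log2 ratio of lung RNA to a common pool of RNA from several organs of untreated rats, lung among them, set relative to the median spot of its array. A value of 0 is therefore the level of the median spot, and a difference of 1 between groups is a factor of 2 in the ratio. Which RNA is the numerator was judged by marker genes: the median of 8 type II pneumocyte markers lay above that of 21 liver markers on all 30 arrays used, while the 2 arrays left out went the other way. Those 2 arrays, sham replicate 2 and 16 h replicate 3, had liver marker medians of 2.87 and 2.27, against -1.06 to 0.61 on the other 30. They were left out of every comparison unless stated, which leaves 5 sham and 2 16 h arrays. Precision is limited by how many arrays each group has, and the labels do not number the animals, so the errors measure only the spread between these samples. Lung is a mixture of cells, and fewer cells of a type and less RNA per cell cannot be told apart here.

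Fibroblast growth factors are secreted ligands that bind receptor tyrosine kinases at the cell surface and signal largely through the Ras and ERK kinases. Fgfr3 encodes one of these receptors, and in mice it acts together with Fgfr4 in the formation of alveoli. Notch receptors are cut after they bind a ligand on a neighbouring cell, and the released fragment joins the DNA-binding protein RBPJ to switch on target genes. Hes5 encodes one such target, a basic helix-loop-helix repressor known best from neural progenitor cells, and in the lung Notch signals guide the choice between secretory, ciliated and neuroendocrine fates.

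The promoter windows of both genes are shown because Hes5 is a direct Notch target and the pair was low at the same time. They run from 250 bases before to 50 bases after a transcript start of RefSeq (build GRCr8), 5′ to 3′ on the strand of the gene. Capitals mark TGGGAA, the core bound by RBPJ, on either strand.
Hes5, chr5:170804327-170804626, plus strand: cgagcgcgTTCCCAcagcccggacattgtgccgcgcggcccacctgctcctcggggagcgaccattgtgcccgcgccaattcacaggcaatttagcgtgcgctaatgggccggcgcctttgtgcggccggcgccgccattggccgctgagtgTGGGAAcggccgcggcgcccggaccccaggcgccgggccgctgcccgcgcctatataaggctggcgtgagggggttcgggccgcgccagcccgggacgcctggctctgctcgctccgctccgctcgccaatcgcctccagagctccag
Fgfr3, chr14:81227160-81227459, minus strand: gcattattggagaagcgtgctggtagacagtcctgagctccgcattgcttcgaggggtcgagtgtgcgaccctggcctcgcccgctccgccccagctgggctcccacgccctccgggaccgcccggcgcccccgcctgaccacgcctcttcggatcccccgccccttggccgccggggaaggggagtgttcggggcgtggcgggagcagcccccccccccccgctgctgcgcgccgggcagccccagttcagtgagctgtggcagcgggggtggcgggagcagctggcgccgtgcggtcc

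The Hes5 window held TGGGAA 2 times, on the minus strand from 242 bases upstream of the start and on the plus strand from 98 bases upstream. The Fgfr3 window held none. At least 1 match was present in 25.7% of the 33469 rat promoter windows of this length, and 2 or more in 3.8%. Both strands were searched for each motif. The E box CANNTG, to which basic helix-loop-helix activators bind, occurred from 158 bases upstream of the start in Fgfr3 and again 31 bases after the start, and from 210 bases upstream in Hes5, against 72.1% of all windows with a match. The N box CACNAG, which Hes repressors bind, was in neither window and in 43.1% of all. Both windows were rich in G and C, at 74.7% for Fgfr3 and 72.7% for Hes5, with a median of 51.7% over all. These matches describe letters only.

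Fgfr3 was highest in the lungs of control and sham rats and in the first hours, and lowest at 72 h. At 72 h its 3 arrays stood at -1.27, -1.40 and -2.31, against 0.54, 0.45, 0.70, 0.24 and 0.75 on the 5 sham arrays and 0.38, 0.55 and 0.74 on the 3 control arrays. The groups did not overlap: each 72 h array was more than 1 log2 unit below the lowest sham and control array. The share of all probes without such an overlap is not given here. As a ratio of lung to organ pool, the mean was 0.317 at 72 h, against 1.45 in sham and 1.47 in control lungs. The log2 difference of 72 h minus sham was -2.19 ± 0.30 (SE of the fit, 3 arrays against 5), a ratio 4.57-fold lower. It was the 13th lowest difference of the 6112 probes. Because the gene was chosen for this difference, it is given as a description without a test. Over all probes, limma called 5.87% in this contrast at an adjusted p under 0.05, which here only sets the scale.

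**Figure D1:**
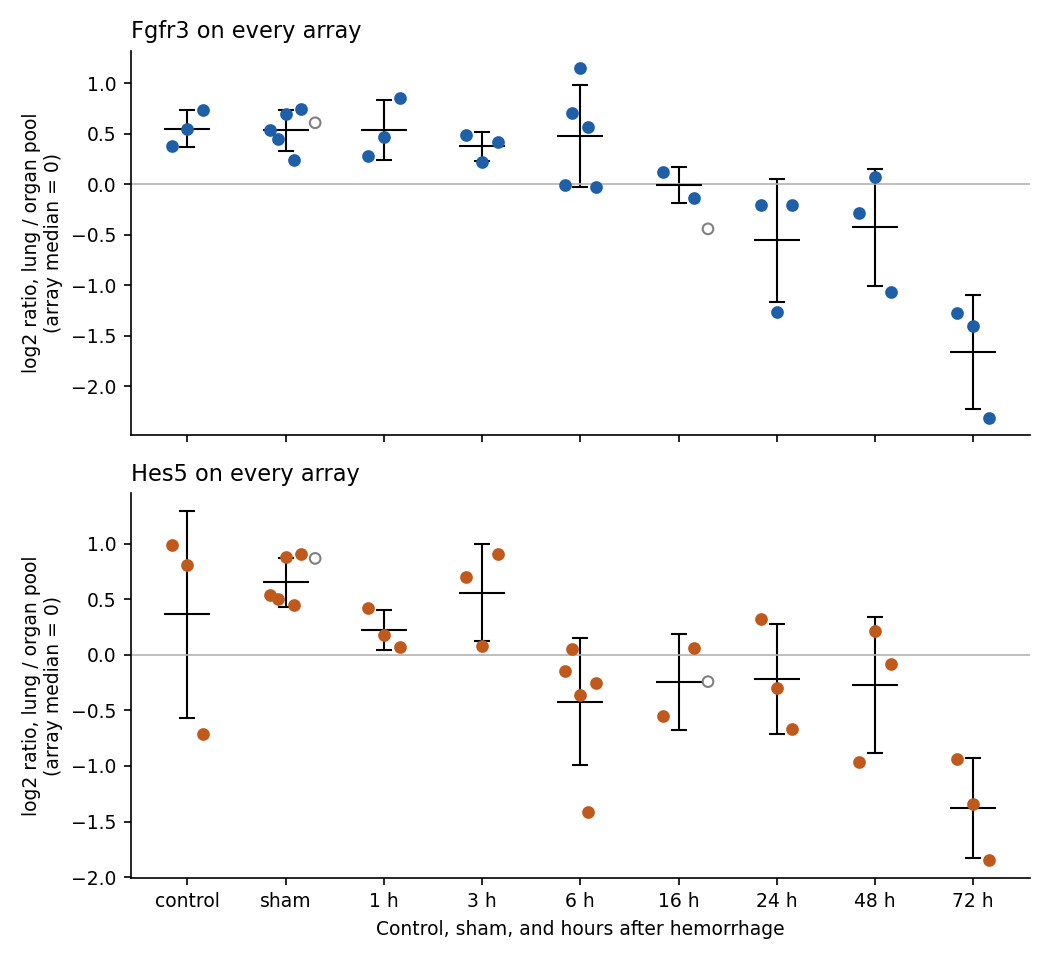
Log2 ratio of lung to organ pool on every array for Fgfr3 (top) and Hes5 (bottom), by group along the x axis; filled points are the 30 arrays used, open points the 2 arrays left out, and bars the mean ± SD of the filled points. The 3 arrays at 72 h are the lowest of each panel for Fgfr3 (-2.31 to -1.27), while for Hes5 (-1.85 to -0.94) they overlap with 1 array at 6 h and 1 at 48 h.

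In the first hours Fgfr3 lay where it did in unbled lungs. It stood at 0.28, 0.47 and 0.86 at 1 h and at 0.49, 0.22 and 0.42 at 3 h. At 6 h the 5 arrays spread more widely, at -0.01, 0.71, 1.15, 0.57 and -0.03. The differences from sham were 0.01 ± 0.30, -0.16 ± 0.30 and -0.06 ± 0.26 at these times, each smaller than its SE.

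From 16 h on the Fgfr3 values were lower. The 2 arrays at 16 h stood at 0.12 and -0.13, those at 24 h at -0.20, -1.26 and -0.20, and those at 48 h at -0.28, 0.07 and -1.06. None of these 8 arrays reached the lowest control or sham array (0.24), but they overlapped with the 2 lowest arrays at 6 h. The differences from sham were -0.54 ± 0.35 at 16 h, -1.09 ± 0.30 at 24 h and -0.96 ± 0.30 at 48 h. Against the mean of 24 and 48 h, the 72 h mean was a further 1.17 log2 units lower (-1.17 ± 0.29), and the highest 72 h array (-1.27) lay just under the lowest 24 h array (-1.26).

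Ordered by mean, Fgfr3 ran from control (0.55 ± 0.18, SD, n = 3) through 1 h (0.54 ± 0.30), sham (0.53 ± 0.20, n = 5), 6 h (0.48 ± 0.50, n = 5), 3 h (0.38 ± 0.14), 16 h (-0.01 ± 0.18, n = 2), 48 h (-0.43 ± 0.58) and 24 h (-0.56 ± 0.61) to 72 h (-1.66 ± 0.57). The first 5 groups did not differ beyond their spread. A gap larger than the larger SD of the neighbouring groups lay between 3 h and 16 h (0.39) and between 24 h and 72 h (1.10). The gaps from 16 h to 48 h and from 48 h to 24 h were smaller than the larger SD of each pair, although all 24 h arrays lay below both 16 h arrays.

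The level before 72 h was tested in a fit without the sham and 72 h arrays, whose difference led to the choice of the genes. The genes were put forward with results of the whole series known, so these tests are not independent support for a lower level. In the 24 and 48 h lungs Fgfr3 fell to a mean ratio about a factor of 2.06 below control, with a log2 difference of -1.04 ± 0.30 (SE, 6 arrays against 3, limma, adjusted p = 0.0495). All 6 bled arrays (-1.26 to 0.07) lay below the 3 control arrays (0.38 to 0.74), and an exact two-sided permutation test over these arrays gave p = 0.0476 without adjustment. The share of all probes that separate in this way is not given here. limma called 5.4% of the 6128 probes in this comparison, 3.13% lower and 2.27% higher, against which 1 of the 2 genes was called. The call was at the edge: it was lost in 8 of 9 omissions of 1 array, with differences of -0.87 to -1.17 and adjusted p-values of up to 0.171 (without control replicate 1), and it held only without 24 h replicate 1 (adjusted p = 0.0395). With the 16 h array of high liver signal added it had an adjusted p of 0.0674. In the same comparison S100a9 and Mmp8, 2 of 8 neutrophil markers, were higher by 2.54 and 2.78 (adjusted p = 0.0347 and 0.0287), and they lost their calls in 4 and 3 of 9 omissions (adjusted p of up to 0.213). Col1a2 and Col3a1, 2 of 14 fibroblast and smooth muscle markers, were lower by -1.20 and -1.59 (adjusted p = 0.014 and 0.0207). In that list 6 of 14 lay above 0 (median -0.24). In other lists Ptprc (-1.28), Snap25 (-1.30), Fabp4 (-1.07) and Selp (-0.67) were called lower and Fgb (1.93) and Slc1a2 (1.14) higher, 1 in each list. The medians of these lists were -0.18 (lymphocyte), -0.03 (neuroendocrine), -0.15 (macrophage), -0.29 (endothelial), 0.32 (liver) and -0.14 (glial). In the same order, 5 of 11, 5 of 11, 2 of 4, 3 of 8, 15 of 21 and 4 of 9 markers lay above 0. On its second probe Fgb was not called, at 0.65 ± 0.36 (adjusted p = 0.27). None of these marker calls held without control replicate 1, an omission after which limma called 0 of all probes in this comparison. The 8 type II pneumocyte markers all lay below 0 (median -0.47), with 0 called. An unadjusted p under 0.05 in limma was seen for 2 of them, against 1510 of all 6128 probes. The part of these cells in the level of Fgfr3 was not tested.

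Against control, the 1, 3 and 6 h lungs showed no called change of Fgfr3, with a log2 difference of -0.09 ± 0.28 (11 arrays against 3, adjusted p = 0.883; 2.04% of probes called, 1.22% higher and 0.816% lower). Set against those early lungs, the 24 and 48 h lungs were lower by -0.96 ± 0.22 (6 arrays against 11, adjusted p = 0.0591; 0.522% of probes called, 0.114% higher and 0.408% lower), which missed the threshold. The 6 late arrays ranged from -1.26 to 0.07 and the 11 early arrays from -0.03 to 1.15, so the groups overlapped slightly. An exact two-sided permutation test over those arrays gave p = 0.000242 before any adjustment, and with all 30 arrays in 1 fit the adjusted p was 0.0245.

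**Figure D2:**
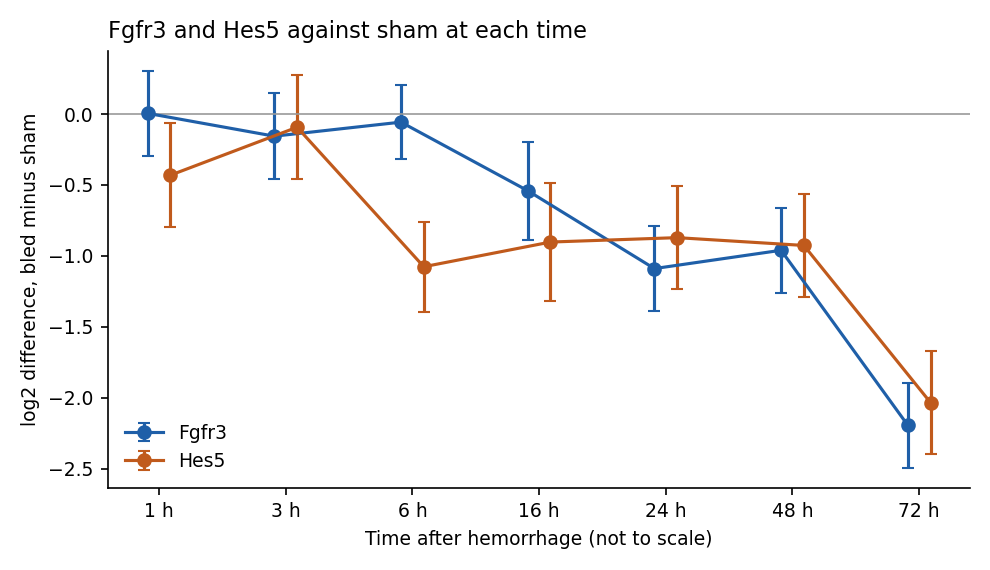
Log2 difference of bled minus sham lungs (y axis) at each time after hemorrhage (x axis, not to scale) for Fgfr3 and Hes5; points are fitted differences and bars their SE. Fgfr3 stayed within 0.16 of sham up to 6 h while Hes5 stood at -1.08 at 6 h, and both were lowest at 72 h.

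Hes5 was also lowest at 72 h, and unlike Fgfr3 its mean was below 0 from 6 h on; this difference in time was not tested. At 72 h its 3 arrays stood at -0.94, -1.34 and -1.85, against 0.54, 0.50, 0.88, 0.45 and 0.91 on the sham arrays. These groups did not overlap, and the share of all probes without an overlap is not given here. The control arrays were split, at 0.99, 0.81 and -0.71, the last of them close to the highest 72 h array. The mean ratio of lung to pool was 0.385 at 72 h, against 1.57 in sham and 1.29 in control lungs. The log2 difference of 72 h minus sham was -2.03 ± 0.37 (3 arrays against 5), a ratio 4.09-fold lower and the 18th lowest of all probes, again a description of the contrast that led to the choice.

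Hes5 had a mean below 0 at 6 h. All its arrays there lay below the lowest sham array (0.45), but so did all arrays at 1 h, and the sham arrays entered the choice of the gene. Against control the 6 h difference was -0.79 ± 0.37, and control replicate 3 (-0.71) lay within the range of the 6 h arrays. The 5 arrays at 6 h stood at -0.14, 0.05, -0.36, -1.41 and -0.25, with replicate 4 far below the others. That array also had the highest liver marker median of the 30 arrays used, 0.61, against -0.89 to -0.36 on the other 6 h arrays. Without it, an omission chosen after seeing the data, the difference of the 6 h and sham means was -0.83, against -1.08 with it. The difference from sham was -1.08 ± 0.32 at 6 h, against -0.43 ± 0.37 at 1 h and -0.09 ± 0.37 at 3 h. The arrays at 1 h stood at 0.42, 0.18 and 0.07, and those at 3 h at 0.70, 0.08 and 0.91. From 16 to 48 h the means lay close to that at 6 h. The 16 h arrays were at -0.55 and 0.06, the 24 h arrays at 0.32, -0.30 and -0.67, and the 48 h arrays at -0.96, 0.22 and -0.08. Differences from sham at these times were -0.90 ± 0.42, -0.87 ± 0.37 and -0.93 ± 0.37.

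The order of the Hes5 means ran from sham (0.66 ± 0.22, SD, n = 5) through 3 h (0.56 ± 0.44), control (0.37 ± 0.93, n = 3), 1 h (0.22 ± 0.18), 24 h (-0.22 ± 0.50), 16 h (-0.25 ± 0.43, n = 2), 48 h (-0.27 ± 0.61) and 6 h (-0.42 ± 0.57, n = 5) to 72 h (-1.38 ± 0.45). Only the last gap, of 0.96 between 6 h and 72 h, was larger than the SD of both neighbours, and even there 1 array at 6 h (-1.41) fell among the 72 h values. The other 7 pairs of neighbours in the order did not differ beyond their spread.

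In the fit without sham and 72 h arrays no change of Hes5 was called. The 24 and 48 h lungs differed from control by -0.61 ± 0.39 (6 arrays against 3, limma, adjusted p = 0.343), and the ranges overlapped, at -0.96 to 0.32 against -0.71 to 0.99. The early lungs differed from control by -0.24 ± 0.36 (11 arrays against 3, adjusted p = 0.724), and the late lungs from the early ones by -0.37 ± 0.28 (6 arrays against 11, adjusted p = 0.61). The first of these turned on single control arrays: it was -0.30 without control replicate 1 (adjusted p = 0.804), -0.38 without control replicate 2 (adjusted p = 0.669) and -1.15 without control replicate 3 (adjusted p = 0.0707).

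The 2 spots of each probe lay next to each other on the list of spots and mostly gave the same reading. For Fgfr3 they correlated at 0.969 over 32 arrays, with a median difference of 0.082 and a largest of 0.66 (sham replicate 1). For Hes5 they correlated at 0.923, with a median difference of 0.092 and a largest of 1.59 on sham replicate 6, where the spots read 0.11 and 1.70. The deposited ratios of the spots ran from 0.20 to 2.01 for Fgfr3 and from 0.27 to 3.29 for Hes5, all clear of the lowest ratio in the data (0.01). At 72 h the spots of Fgfr3 read ratios of 0.41 and 0.42, 0.37 and 0.38, and 0.20 and 0.20, so the low values did not come from a single spot. On the 2 arrays left out, Fgfr3 stood at 0.61 (sham replicate 2) and -0.44 (16 h replicate 3) and Hes5 at 0.87 and -0.24, within or close to the range of their groups.

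Apart from the 72 h and sham arrays, no relation between the 2 genes was detected. Over the 22 arrays of control and 1 to 48 h lungs, Pearson's r was 0.134 (permutation p = 0.554) and Spearman's rho 0.132 (permutation p = 0.56), the only relation tested. Without the 2 arrays farthest from the median of Fgfr3, 24 h replicate 2 and 48 h replicate 3, r was 0.101 (permutation p = 0.68). As a description, r was 0.598 over all 30 arrays, which include the arrays behind the choice of both genes, and 0.047 for deviations from the group means.

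**Figure D3:**
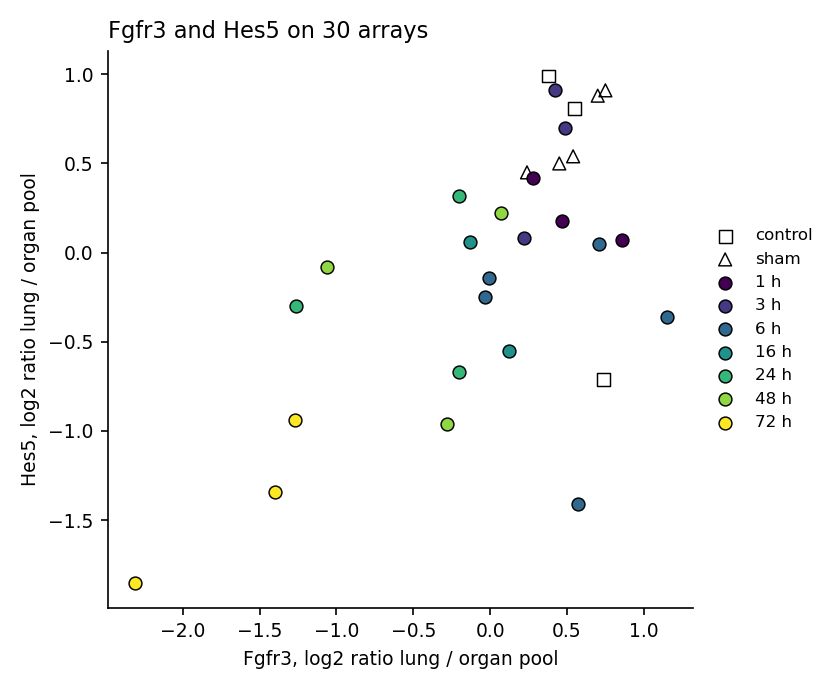
Hes5 (y axis) against Fgfr3 (x axis), both as log2 ratio of lung to organ pool, on the 30 arrays used; squares are control, triangles sham and circles bled lungs coloured by hour. The 3 arrays at 72 h lie at the lower left, sham arrays at the upper right, and the remaining 22 arrays show little relation (r = 0.134).

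The probes most like each member were ranked by Pearson's r over the 30 arrays, among 5121 other named probes with a value on at least 27 of them. For Fgfr3 these were Scrn3 (0.828), Ctsh (0.781), which encodes the protease cathepsin H, Rab7a (0.769), a GTPase of late endosomes, Fmo2 (0.769), a flavin monooxygenase of lung, and Nexn (0.758), an actin-binding protein. Ctsh had means of 0.21 at 72 h and 0.39 at 24 h, against 1.42 in sham and 1.50 in control lungs. Rab7a had a mean of -1.64 at 72 h, against 0.36 in sham and 0.46 in control lungs. For Hes5 they were Arhgef11 (0.883), Fgf17 (0.856), a ligand of FGF receptors, Gadd45g (0.839), Gpx4 (0.833), which reduces lipid peroxides, and Clip1 (0.82), a microtubule-binding protein. Arhgef11 had means of -0.68 at 72 h and 0.03 at 6 h, against 0.73 in sham lungs and 0.72 in control lungs. Hes5 was the 114th most alike to Fgfr3 and Fgfr3 the 223rd most alike to Hes5. These values share arrays and array scaling and carry no test.

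Among the FGF ligands, Fgf8, Fgf9 and Fgf17 were called lower at 72 h, in a list that did not shift as a whole. Of the 22 ligands, 11 lay below 0 and 11 above, with differences of -1.29 to 1.13. In limma 3 were called lower and 0 higher, with a median difference of -0.01. Over all probes 3.83% were called lower and 2.05% higher, with a median of 0.02. An unadjusted p under 0.05 was seen for 10 of the 22 ligands, against 1364 of all 6112 probes. Fgf8 stood at -0.52, -0.75 and -0.93 at 72 h, against 0.16, 0.54, 0.52, 0.55 and 0.01 on sham arrays, a log2 difference of -1.09 ± 0.22 (adjusted p = 0.00725). Fgf9, a ligand of the lung epithelium and mesothelium during development, stood at 0.12, -0.77 and -0.65, against 0.66, 1.09, 0.55, 0.51 and 0.75, a difference of -1.15 ± 0.23 (adjusted p = 0.00545). Fgf17 stood at -0.22, -0.81 and -1.27, against 0.82, 0.52, 0.35, 0.57 and 0.37, a difference of -1.29 ± 0.33 (adjusted p = 0.0232). For each of these ligands all 72 h arrays lay below all sham arrays. They were named because limma called them in this comparison, so the separation is no further support. In the 24 and 48 h lungs against control, Fgf9 was the 1 ligand of 22 called, lower by -0.94 ± 0.21 (adjusted p = 0.0207). Of all probes 5.4% were called in that comparison, 3.13% lower. The calls at 72 h were lost without 72 h replicate 3 (adjusted p of up to 0.189, for Fgf17), and those of Fgf9 and Fgf17 also without 72 h replicate 2. That of Fgf9 at 24 and 48 h was lost without control replicate 1 or control replicate 2 (adjusted p of up to 0.144). Without control replicate 1 limma called 0 of all probes at 24 and 48 h.

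The other FGF receptors on the arrays stood nearer to sham at 72 h. Fgfr1 differed by -0.28 ± 0.22 (adjusted p = 0.487) and by -0.90 ± 0.37 on its second probe (adjusted p = 0.15), and Fgfr2, the receptor for epithelial branching, by -0.41 ± 0.25 (adjusted p = 0.34) and by -0.15 ± 0.28 on its second probe (adjusted p = 0.788). None was called, and their differences from that of Fgfr3 were not tested. Fgfbp1, a carrier that releases FGFs from the matrix, rose by 0.86 ± 0.23 (adjusted p = 0.025), with 0.10, 0.36 and 0.78 at 72 h, against -0.65, -1.11, -0.18, -0.29 and -0.04 on sham arrays. It was the 1 called of 11 receptors, co-receptors and binding proteins besides Fgfr3, which had a median of -0.16. Of all probes 5.87% were called, 2.05% higher. Fgfbp1 lost the call without sham replicate 1 or 3 or 72 h replicate 2 or 3 (adjusted p of up to 0.213).

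Of the chain from the receptor to ERK, Hras was the 1 called of 12 genes at 72 h, lower by -1.11 ± 0.30 (adjusted p = 0.0314), with a list median of -0.10, against 5.87% of all probes called and 3.83% called lower. It kept the call in 3 of 8 omissions of 1 array (adjusted p of up to 0.157) and lost it with all arrays (adjusted p = 0.0616). In the list of 9 ERK targets and feedback inhibitors, with a median of -0.48 and against the same shares of all probes, Fos, a subunit of AP-1, was the 1 called, lower by -1.0 ± 0.25 (adjusted p = 0.0221). Fos lost the call without 72 h replicate 2 or 3 (adjusted p of up to 0.137). In the 24 and 48 h lungs against control, Fosl1, another AP-1 subunit, was the 1 called of 9, lower by -1.33 ± 0.27 (adjusted p = 0.014; 5.4% of all probes called), and it was lower in the 1, 3 and 6 h lungs too, by -1.08 ± 0.25 (adjusted p = 0.0344; 2.04% of all probes called). Neither call of Fosl1 held without control replicate 1 (adjusted p of up to 0.108 for the late and 0.257 for the early lungs), and the early one was also lost without control replicate 2, 1 h replicate 2 or 3, or 6 h replicate 4 or 5. Without control replicate 1 limma called 0 of all probes in either comparison. Without control replicate 2 it called 0 of all probes in the early one.

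**Figure D4:**
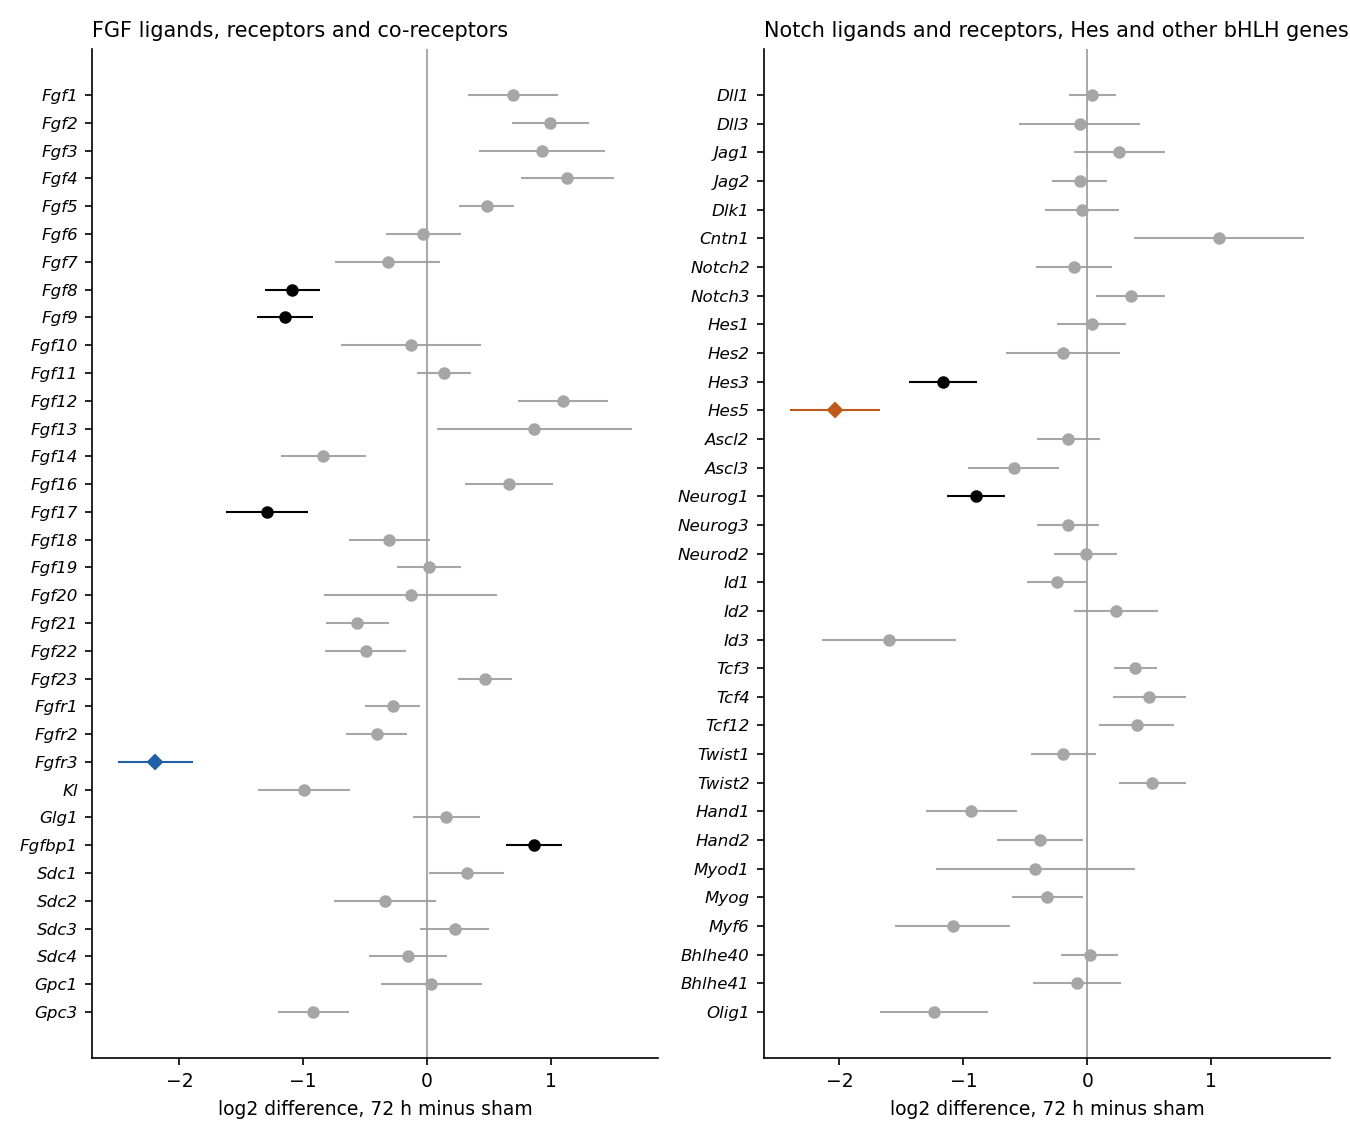
Log2 difference of 72 h minus sham lungs (x axis) with its SE for FGF ligands, receptors and co-receptors (left) and for Notch ligands and receptors, Hes genes and other basic helix-loop-helix genes (right); diamonds are Fgfr3 and Hes5, black points are called genes and grey points are not called. Fgfr3 (-2.19) and Hes5 (-2.03) lie farthest to the left, with Fgf17 (-1.29), Hes3 (-1.16), Fgf9 (-1.15), Fgf8 (-1.09) and Neurog1 (-0.90) called lower and Fgfbp1 (0.86) called higher.

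Of the other Hes genes on the arrays, Hes3 was called lower and Hes1 and Hes2 were not called. Whether they differ from Hes3 or Hes5 was not tested. Hes3, like Hes5 a repressor of the family, fell at 72 h by a log2 difference of -1.16 ± 0.28 (limma, adjusted p = 0.0164), with -0.90, -0.65 and -0.44 against 1.06, 0.17, 0.63, 0.07 and 0.56 on sham arrays. It also fell at 24 and 48 h against control, by -1.18 ± 0.27 (adjusted p = 0.0217), with -0.33, -0.78, -1.40, -0.88, -0.45 and -0.96 against 0.57, 0.41 and 0.18 on control arrays. In both comparisons the groups did not overlap, which is no further support for a gene named by its calls there. Hes3 was the 1 of 4 Hes genes called in the second comparison, against the 5.4% of all probes given above, and lost the call at 72 h without 72 h replicate 2 or 3 (adjusted p of up to 0.0818) and at 24 and 48 h without control replicate 1 or 2 (adjusted p of up to 0.144). Without control replicate 1 limma called 0 of all probes in the second comparison. Hes1, a Notch target in lung epithelium, stood at -0.12, 0.32 and 0.83 at 72 h, against 0.22, 1.00, -0.15, 0.03 and 0.45 on sham arrays, a difference of 0.03 ± 0.28 (adjusted p = 0.962). Hes2 differed by -0.20 ± 0.46 (adjusted p = 0.846). Against control, all 4 Hes genes, Hes5 included, lay below 0 at 24 and 48 h (median -0.44, against 0.06 over all probes) and at 1, 3 and 6 h (median -0.30, against 0.05), where Hes1 differed by -0.24 ± 0.25 (adjusted p = 0.574) and -0.45 ± 0.23 (adjusted p = 0.251) and Hes2 by -0.27 ± 0.49 (adjusted p = 0.771) and -0.10 ± 0.46 (adjusted p = 0.918). Whether a probe also binds RNA of a related family member was not tested.

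Upstream in the Notch pathway no gene was called in any of the 4 comparisons by limma. At 72 h the 8 ligands and receptors had a median difference of 0.00 and 0 had an unadjusted p under 0.05, against 1364 of all 6112 probes. The smallest p-values were those of Cntn1, a contactin that can bind Notch, at 1.06 ± 0.68 (adjusted p = 0.369) and Notch3, a receptor of vascular smooth muscle, at 0.35 ± 0.28 (adjusted p = 0.481). Of 6 genes of receptor cutting and glycosylation, with a median of 0.04, 1 had an unadjusted p under 0.05, Adam10, the protease of the first cut, at 0.91 ± 0.42 (adjusted p = 0.203), followed by Furin, which cuts the receptor during maturation, at -0.46 ± 0.27 (adjusted p = 0.312). Of 8 nuclear co-factors, with a median of -0.03, 5 had an unadjusted p under 0.05, with the smallest for the co-repressors Tle4 at 0.92 ± 0.29 (adjusted p = 0.0622) and Cir1 at 1.07 ± 0.35 (adjusted p = 0.0655). With quantile normalization 2 of these 8 were called higher. At 24 and 48 h against control all 8 ligands and receptors lay above 0 (median 0.36, against 0.06 over all probes). Of them 2 had an unadjusted p under 0.05 in limma, against 1510 of all 6128 probes.

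Of 21 other basic helix-loop-helix and Id genes, 15 lay below 0 at 72 h (median -0.19) and 1 was called, Neurog1, an activator of neuronal fate, lower by -0.90 ± 0.24 (adjusted p = 0.025), against 5.87% of all probes called. That call was lost without sham replicate 3, 72 h replicate 2 or 72 h replicate 3 (adjusted p of up to 0.222). In the 24 and 48 h lungs against control 3 of 21 were called, all lower, against 5.4% of all probes: Ascl2 by -1.14 ± 0.26 (adjusted p = 0.0213), Neurog1 by -0.81 ± 0.20 (adjusted p = 0.0302) and Neurog3 by -1.0 ± 0.26 (adjusted p = 0.0355). Each of these 3 calls was lost without control replicate 1 (adjusted p of up to 0.174), without which limma called 0 of all probes in that comparison (863 at an unadjusted p under 0.05). Over all 9 omissions Ascl2 kept its call in 8, Neurog1 in 4 and Neurog3 in 3.

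Cell markers also moved at 72 h, in lists of textbook markers, where limma called 5.87% of all probes. Of 8 type II pneumocyte markers, Sftpb and Sftpc (surfactant proteins B and C) were called, lower by -1.50 ± 0.32 and -1.65 ± 0.49 (adjusted p = 0.00822 and 0.0459). Of 7 type I markers, Akap5 was called, lower by -0.98 ± 0.23 (adjusted p = 0.0164), and of 7 club and ciliated cell markers, Scgb1a1, lower by -2.15 ± 0.54 (adjusted p = 0.0221), in a list with 5 of 7 above 0 (median 0.16). Cyp4b1 of the club list was counted by a probe at 0.16 ± 0.31 (limma, adjusted p = 0.8). Its second probe was called lower, by -2.21 ± 0.44 (adjusted p = 0.00545). Of the type II markers 7 of 8 lay below 0 (median -0.68), and of the type I markers 6 of 7 (median -0.73). In each of these 2 lists 4 had an unadjusted p under 0.05 in limma, as did 1364 of all 6112 probes. The array medians of the type II, type I and club lists overlapped: 0.86 to 1.16 at 72 h against 0.74 to 1.88 in sham lungs for type II, 0.96 to 1.75 against 1.25 to 2.38 for type I, and 0.32 to 0.56 against 0.02 to 0.51 for club and ciliated cells. Of 8 endothelial markers, 6 lay below 0 (median -0.33). Car4 was lower by -2.14 ± 0.59 (adjusted p = 0.035) and Kdr higher by 0.86 ± 0.24 (adjusted p = 0.0383), with array medians of -0.21 to 0.44 against -0.05 to 0.47. Of 8 neutrophil markers, 5 lay above 0 and 3 below (median 0.12). Mmp8 was the 1 called, higher by 4.37 ± 0.70 (limma, adjusted p = 0.00167). The array medians of the list were 0.19 to 0.63 against -0.07 to 0.23. Of 11 neuroendocrine markers none was called (5 at an unadjusted p under 0.05, limma), and their array medians were -0.64 to -0.59 at 72 h against -0.85 to -0.35. Fabp4 was the 1 called of 4 macrophage markers, lower, with a list median of -0.81. Single markers were also called lower in lists whose medians lay elsewhere: Ptprc of 11 lymphocyte markers (7 of them above 0, median 0.20), Mbp of 9 glial markers (5 above 0, median 0.13) and Fga of 21 liver markers (median -0.02). Of 6 erythroid markers, with a median of -0.14, Rhag was higher and Gata1 lower. All 6 of these calls were lost without 72 h replicate 2 and without 72 h replicate 3 (adjusted p of up to 0.206). Of 14 fibroblast and smooth muscle markers 0 were called (2 at an unadjusted p under 0.05). Mmp8 kept its call in all 8 omissions of 1 array, while Sftpb, Sftpc, Akap5, Scgb1a1, Car4 and Kdr each lost theirs without 72 h replicate 3 or in others (adjusted p of up to 0.386, for Car4, whose difference ranged up to -0.81). The part of these cell types in the levels of Fgfr3 and Hes5 was not tested. With both left-out arrays added, Sftpb, Sftpc, Akap5 and Scgb1a1 were no longer called (adjusted p of 0.562 to 0.802), nor were Ptprc (adjusted p = 0.0639) and Gata1 (adjusted p = 0.279). After quantile normalization of the 30 arrays, Sftpb (limma, adjusted p = 0.118) and Akap5 (adjusted p = 0.225) were not called either.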

How the data were processed

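Expression was measured on 2-colour arrays, 1 for each of 32 lung samples, against a common reference pool. The deposited values are log2 ratios, made by the authors from the array channels; on the linear scale 100% lay within 0.001 of a multiple of 0.01. For the dyes, the scanner and the normalization, no source used here gives details. Each array had 13056 spots, 12151 to 12895 with a value. Ratios were centred on each array's median (-0.38 to 0.06), and spots of 1 accession, or neighbouring spots without one, were averaged into 6344 probes, 5143 with 1 symbol in the platform annotation.

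Groups came from the titles. limma 3.58.1 in R 4.3.3 (lmFit, eBayes, two-sided) was fitted over all probes with values on at least 2 arrays of each group, with Benjamini-Hochberg adjustment; a called probe had an adjusted p under 0.05. One fit held 30 arrays of 9 groups (72 h against sham), another 22 arrays without sham and 72 h (3 tested comparisons). Permutation tests used scipy 1.17.1 (100000 resamples) or every regrouping. The code was tested on simulated data.

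The genes and lists were chosen with earlier results of these data known. Named were the pair, called genes of the FGF, Notch and basic helix-loop-helix lists, the 2 with the smallest p in a list without a call, other Fgfr and Hes genes, the 5 most alike probes of each member, and up to 3 called markers per list. Alternatives were all arrays, no centring, quantile normalization, no filter, no spots near the floor (ratio 0.05), a replicate block, a robust prior, single spots, other fits and omission of each array. For single list genes and list counts, the omissions and other settings were added after seeing the data.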

Additional observations from a re-analysis of the deposited data

Results flagged for a closer look

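Of the 5 Hes5 arrays at 6 h, replicate 4 stood at -1.41, far below the other four (-0.36 to 0.05). Its gap to the next array was 0.721 of the range of the group, above the 95% limit of 0.71 in Dixon's test for 5 values. Chance alone passes this limit in about 1 of 20 groups, and 4 groups were tested. Its 2 spots read -1.33 and -1.49, and Fgfr3 stood at 0.57 on the same array. The liver marker median of that array was 0.61, the highest of the 30 arrays used, against -0.89 to -0.36 on the other 6 h arrays; its part in the value was not tested.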

How the results depend on the processing

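The difference of 72 h minus sham kept its sign and size under the 10 other settings, at -2.33 to -2.12 for Fgfr3 and -2.20 to -1.88 for Hes5, and at -2.39 to -1.87 and -2.25 to -1.80 over the 8 omissions of 1 array. The fall of Fgfr3 at 24 and 48 h against control kept its size and lost its call with all arrays (-1.04, adjusted p = 0.0674), without the filter on missing values (-1.04, 0.0525), with the replicate block (-1.04, 0.0806), and with the first (-1.03, 0.0603) or second spot alone (-1.06, 0.0553); omissions gave -1.17 to -0.87. The late against early difference of Fgfr3 passed the threshold when not centred (-0.98, adjusted p = 0.0295), after quantile normalization (-0.97, 0.0449), with the second spot alone (-0.98, 0.0487) and with all groups in 1 fit (-0.96, 0.0245). The exact permutation test (-0.96, unadjusted p = 0.000242) has no adjustment over probes, so it cannot be set against that threshold. In limma the unadjusted p was 0.000337 and the adjusted p 0.0591. Omissions gave -1.08 to -0.78. The early against control differences ranged over omissions from -0.18 to 0.00 (Fgfr3, 0.002 without control replicate 3) and from -0.78 to 0.07 (Hes5, 0.071 without control replicate 1). Hes5 at 24 and 48 h gave -1.15 to -0.30 against control and -0.50 to -0.19 against early lungs. The correlation of both genes moved to 0.608 over 32 arrays and to -0.119 for deviations from group means.

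Counts of called probes moved more. At 24 and 48 h against control 331 were called, 164 with all arrays, 146 with the replicate block and 0 to 420 over omissions (0 without control replicate 1, where 863 had an unadjusted p under 0.05). At 1, 3 and 6 h against control there were 125, with 28 for all arrays, 0 with the replicate block (1106 unadjusted) and 0 to 329 over omissions. Late against early lungs gave 32, with 67 not centred, 57 after quantile normalization, 5 with the replicate block and 1 to 88 over omissions. At 72 h against sham there were 359, with 189 for all arrays, 127 with the replicate block and 42 (without 72 h replicate 3) to 482 over omissions. Replicate numbers of the titles gave no general sign of pairing: of 94 same-numbered pairs of arrays 25 had deviations correlated above 0.1 (median 0.003), and of 302 other pairs 85 did (median 0.000). The highest correlations of single pairs were 0.381 and 0.584. Whether some groups were handled together by number cannot be told from these values.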
